A study of Rattus norvegicus with 210 samples.

Results

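The mediobasal hypothalamus (MBH) of female rats exposed around birth to ketoconazole at 6 mg/kg/day (K6) was compared at postnatal day 90 (PND90) with that of rats given the vehicle. These 10 libraries, 5 labelled K6 and 5 labelled control, were found by their column labels and are part of 210 libraries in all. The series holds 105 libraries each of the MBH and of the preoptic area (POA), with 7 groups at PND22, PND42 and PND90. Dams, Sprague-Dawley rats, received corn oil or a chemical dissolved in it by gavage every day from gestation day 7 to the end of lactation at PND22, with a pause at birth. All offspring sampled were female, and the ketoconazole (KTZ) groups K3, K6 and K12 differ in dose alone (3, 6 and 12 mg/kg/day). The labels do not say whether the 5 rats of a group came from separate litters, so p-values measure the spread between these libraries, which may include shared litters. What was counted is reads on genes in polyadenylated RNA, between 16919455 and 22416287 per library labelled control and between 16009208 and 19556191 per K6 library. Levels are given as CPM, a gene's counts scaled to a common library total, and are not compared between genes because they are not divided by length.

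Ketoconazole is an imidazole antifungal that blocks cytochrome P450 enzymes, among them those of sterol and steroid hormone synthesis. The MBH holds the arcuate nucleus, whose neurons make kisspeptin, neurokinin B and the appetite peptides, and the lower hypothalamus beside it holds the neurons of melanin-concentrating hormone and orexin. Glia of this region go on maturing after weaning: oligodendrocyte precursors divide, pass through a short premyelinating stage and then wrap axons, and membrane synthesis slows once the sheaths are laid down.

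The libraries labelled MBH PND90 control went against their age label. An age score was computed for each library as the mean log2 level of 100 genes that were higher at PND90 than at PND22 in POA control libraries, minus that of 100 genes that were lower. The score is fixed by construction in POA controls at PND22, where it ran from -1.41 to -1.16, and at PND90, where it ran from 1.39 to 1.76, while POA controls at PND42, which did not enter the choice, lay between 0.22 and 0.68. MBH controls lay between -1.0 and -0.77 at PND22 and between 0.25 and 0.81 at PND42. At PND90 they lay between -1.12 and -0.70, overlapping the PND22 libraries and below every PND42 library. The K6 libraries labelled PND90 lay between 1.07 and 2.05, K3 between 1.25 and 1.75 and K12 between 1.33 and 1.61. Between MBH controls labelled PND90 and PND22, 10 of 14745 genes were called (0.0678%, edgeR's quasi-likelihood test with an adjusted p under 0.05; 2189 at an unadjusted p under 0.05), against 3922 of 14351 (27.3%) for the same labelled ages in the POA. The group is therefore written here as the libraries labelled control, and the age of these libraries and the exposure cannot be told apart in this comparison.

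**Figure D1:**
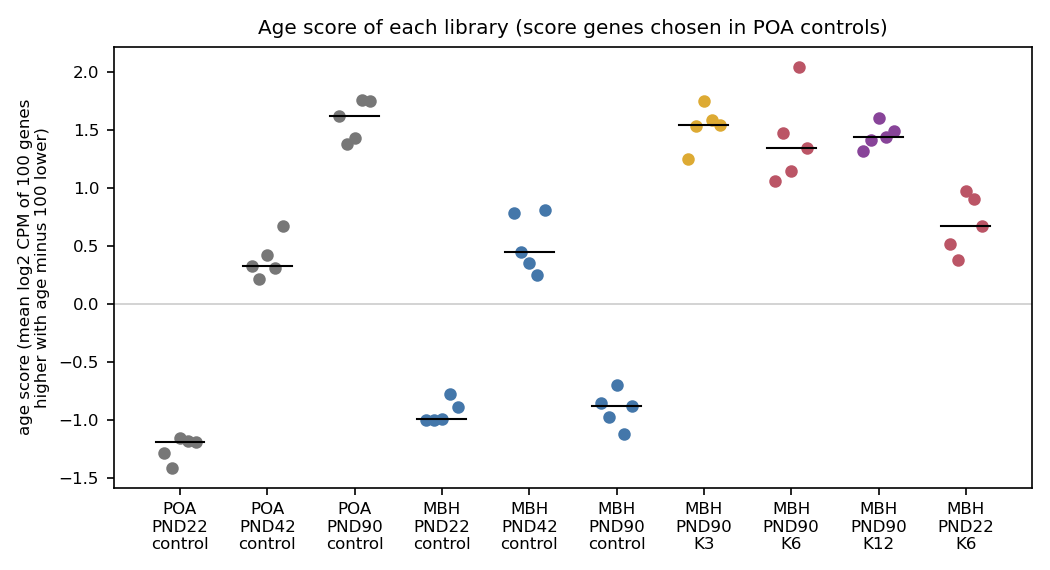
Age score of each library (y axis, difference of mean log2 CPM) by tissue, labelled age and group; points are libraries and bars group medians. The 5 MBH libraries labelled PND90 control sit between -1.12 and -0.70, with the PND22 controls, and the 5 K6 libraries between 1.07 and 2.05.

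Other groups also went against their labels. The groups given diethylstilbestrol, a synthetic estrogen, at 3 and 6 µg/kg/day (D3 and D6) scored between -0.98 and -0.67, and the 5 libraries at 12 µg/kg/day (D12) split into 2 at -0.83 and -0.76 and 3 between 1.49 and 1.81. Of the MBH PND42 K12 libraries 4 scored between -1.12 and -0.61 and 1 at 1.77. In the POA at PND90, K12 scored between -1.10 and -0.70, and K6 had 4 libraries between -0.93 and -0.85 and 1 at 0.99. The column headings give the POA and MBH libraries labelled PND90 K6 the same animal numbers, and likewise those labelled PND90 control. Some of the numbers recur in groups of another labelled age, so a number names a rat only within its group. By those numbers the same rats labelled K6 scored high in the MBH and, in 4 of 5 cases, low in the POA, and the rats labelled PND90 control scored low in the MBH and high in the POA. The tissue label was checked with Foxb1, a transcription factor of the mammillary neurons beside the MBH. It was at 10.3 to 13.3 CPM in the libraries labelled control and at 7.12 to 15 in K6 (adjusted p = 0.969), against a mean of 2.73 in POA controls at PND90. One POA PND22 control library, replicate 4, stood apart from the other POA controls in markers of MBH neurons, and without it the POA age comparison called 3448 genes. K6 replicate 4 also stood apart, with 12.4% of its counts on mitochondrially encoded genes against 6.74 to 7.68% in the other K6 libraries, and with Mbp, the myelin basic protein, at 13600 CPM against 3630 in the lowest K6 library. Its scaling factor in the fits was 0.875, against 1 to 1.03 in the other K6 libraries, and CPM do not include this factor. No 2 libraries of either group agreed within sampling noise.

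In K6, 2843 of 14647 genes were called (19.4%), of which 1341 (9.16%) were higher and 1502 (10.3%) lower than in the libraries labelled control. DESeq2 called 3632. In CPM, which do not include the scaling factors of the fits, the 5 K6 values lay wholly above the 5 labelled control values for 1092 genes (7.46%). They lay wholly below for 1374 (9.38%). Leaving out K6 replicate 4 raised the count to 3719, and leaving out K6 replicate 2 lowered it to 1866. Against the MBH controls labelled PND22 in place of those labelled PND90, the K6 libraries differed in 3166 genes, and against those labelled PND42 in 47. With the PND22 controls 8 oligodendrocyte precursor genes fell, 11 interferon-stimulated genes rose, and 3 arcuate genes rose and 1 fell. With the PND42 controls no oligodendrocyte precursor, arcuate, Polycomb, calcium channel or interferon-stimulated gene of the lists was called. Falls were still called there for 3 genes of newly formed oligodendrocytes, 4 of mature myelin, 3 of red blood cells and 1 of dividing cells. Of the named genes 15 kept their call against the PND42 controls, 110 lost it and 10 changed sign. Npw was not tested there.

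The K6 differences were set beside the age difference of POA controls. The 2 comparisons share no library, but by the column headings the POA PND90 controls come from the same animals as the MBH libraries labelled PND90 control. Of all genes tested in the POA, 15.5% were higher and 11.8% lower at PND90. Of 2792 genes called in K6 and also tested in the POA, 1687 (60.4%) were called between POA controls at PND90 and PND22, and 2678 (95.9%) had the same sign there, against 77.6% of all 14243 genes tested in both. In the other direction, 43.1% of the genes called with age in the POA were called in K6. Across these genes, which are not independent replicates, Pearson's r between the log2 fold changes was 0.73. The genes not called with age in the POA were called in K6 in 1105 of 10331 cases (10.7%), and 114 of the K6 calls had the opposite sign in the POA.

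**Figure D2:**
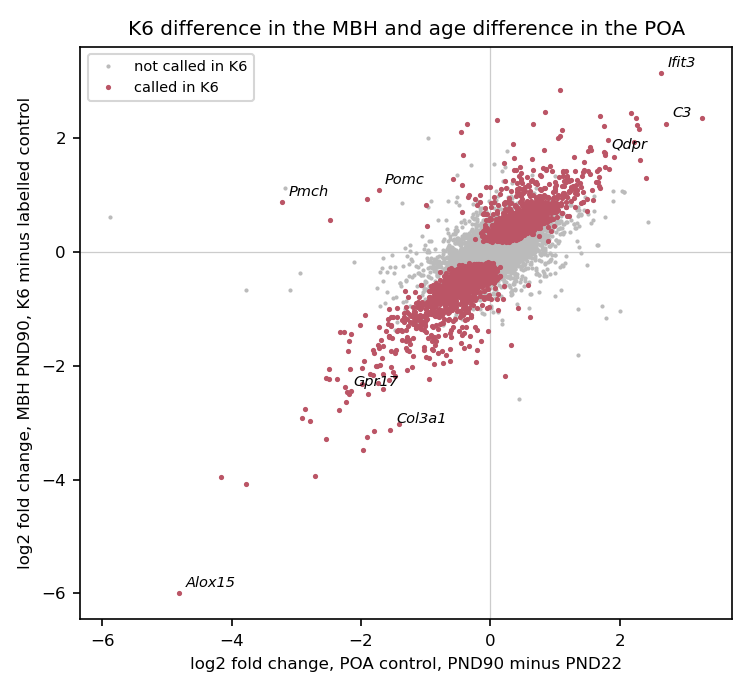
Log2 fold change of each gene in K6 against the libraries labelled control, MBH PND90 (y axis), beside that of POA controls at PND90 against PND22 (x axis); each of the 14243 points is a gene and the red ones were called in K6. The points lie along a rising diagonal (r = 0.73), with Alox15 lowest at a log2 fold change of -5.99. Pmch and Pomc lie in the upper left, at 0.88 and 1.08 in K6 and at -3.21 and -1.73 in the POA. Neither was called with age in the POA (adjusted p = 0.204 and 0.2, edgeR). In POA controls at PND22 the summed lateral and tuberomammillary list, which holds Pmch, ran from 10.6 to 1630 CPM.

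The largest difference of any called gene was in Alox15, the 15-lipoxygenase that oxidises polyunsaturated fatty acids. Its level was 50, 43.6, 27.7, 85.5 and 36.3 CPM in the libraries labelled control and 0.56, 0.75, 0.56, 1.06 and 0.77 in K6. The groups were far apart, and the log2 fold change was -5.99 ± 0.35 (SE; adjusted p = 1.52e-06, edgeR). In MBH controls it was 56.6 ± 20.4 CPM (SD, n = 5) at PND22 and 5.27 ± 2.16 at PND42, and in POA controls it went from 43.0 ± 17.5 at PND22 to 1.51 ± 0.60 at PND90. Pnlip, a pancreatic-type lipase, fell from 46.6 ± 4.37 to 6.61 ± 1.76 CPM (log2 fold change -2.77, adjusted p = 2.49e-06). Aim2, the cytosolic DNA sensor, fell from 3.40 ± 1.25 to 0.41 ± 0.29 CPM.

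Among the genes that rose, Qdpr, which regenerates the tetrahydrobiopterin cofactor of monoamine synthesis, had the smallest p-value. It was at 120, 113, 106, 105 and 110 CPM in the libraries labelled control and at 309, 342, 319, 381 and 394 in K6, a log2 fold change of 1.70 ± 0.11 (adjusted p = 2.23e-06). The groups were separated by more than the whole range of either. C3, the central complement component, rose from 4.63 ± 1.54 to 21.4 ± 6.68 CPM and Pla2g7, which hydrolyses platelet-activating factor, from 23.5 ± 4.66 to 75.4 ± 16.8. Cryab, the small heat shock protein alpha-B crystallin, rose from 20.1 ± 2.64 to 84.1 ± 54.2 CPM, and Thrsp, a regulator of fatty acid synthesis, from 3.78 ± 0.62 to 19.4 ± 7.92; K6 replicate 4 was the highest library for both, at 176 and 33.2 CPM. Aadat, the aminotransferase that makes kynurenic acid, was at 2.09 ± 0.86 and 10.5 ± 3.35 CPM, and Gsta1, a glutathione transferase, at 31.5 ± 4.28 and 108 ± 43.6. Lrat, which esterifies retinol, rose from 1.64 ± 0.34 to 5.18 ± 1.82 CPM. Mfrp and Pbld1, at log2 fold changes of 2.47 and 1.75, were also among the 12 largest rises, as were the interferon-stimulated Ifit3 and Isg15 described further on.

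**Figure D3:**
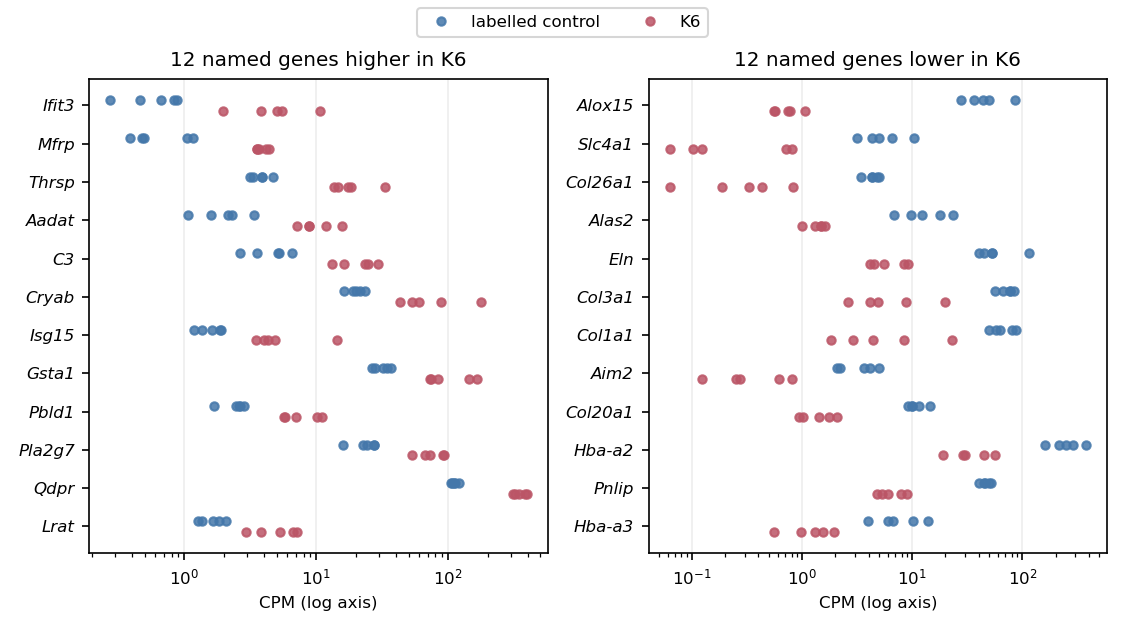
Level (CPM, log axis) of the 12 named genes with the largest rise and the 12 with the largest fall; each point is a library, blue for the libraries labelled control and red for K6. The 2 groups do not overlap for any of these genes, which the rule for naming them required.

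Genes of the lineage that makes myelin were mostly lower. Of 10 oligodendrocyte precursor markers tested, 9 fell and none rose, with a median log2 fold change of -0.60 against 0.00 over all genes. Pdgfra, the growth factor receptor that defines these cells, was at 147, 136, 154, 144 and 148 CPM in the libraries labelled control and at 96.6, 88.4, 99.7, 71.6 and 95.9 in K6. Every K6 value lay below every labelled control value (log2 fold change -0.66 ± 0.07, adjusted p = 8.1e-05). Cspg4, the NG2 proteoglycan of precursors, fell from 46.6 ± 4.92 to 25.3 ± 3.13 CPM, and Matn4, a matrix protein, from 7.82 ± 0.56 to 2.24 ± 0.27. Sox10, a transcription factor of the whole lineage, fell from 85.5 ± 10.9 to 52.8 ± 4.40 CPM. The lineage factor Olig1 was the member not called, at 138 ± 20.8 and 93.9 ± 19.5 CPM (adjusted p = 0.0538). In bulk tissue, fewer cells of a type and less RNA in each cell cannot be told apart. With age in POA controls, 8 of the 10 genes fell.

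Markers of the premyelinating stage were lower too. Of 12 genes tested, 9 fell and none rose, with a median log2 fold change of -0.71. Gpr17, the receptor that marks this stage, was at 136, 115, 135, 106 and 122 CPM in the libraries labelled control and at 26.4, 20.3, 26.8, 16.4 and 19.0 in K6. That is a log2 fold change of -2.46 ± 0.12 (adjusted p = 2.45e-07), and no value came near the other group. Enpp6, a choline phosphodiesterase of new oligodendrocytes, fell from 32.0 ± 3.91 to 6.65 ± 0.77 CPM, Rras2 from 39.2 ± 4.19 to 14.6 ± 0.87 and the kinase Fyn from 218 ± 12.9 to 133 ± 4.77. Bcas1, another gene of this stage, ranged from 150 to 581 CPM in K6 and was not called (adjusted p = 0.824). In POA controls 9 of the 12 fell between PND22 and PND90, and Gpr17 went from 128 ± 37.0 CPM through 46.4 ± 5.91 at PND42 to 27.4 ± 1.93.

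Genes of mature myelin did not move together: of 20 tested, 10 fell, 3 rose and 7 were not called. Among all genes, 10.3% fell and 9.16% rose. The falls numbered 6 without labelled control replicate 1 or 5 or K6 replicate 2 or 3. Those that fell included the enzyme and adhesion genes of sheath building. Ugt8, which makes the myelin lipid galactosylceramide, was at 605, 404, 431, 522 and 465 CPM in the libraries labelled control and at 123, 127, 133, 130 and 173 in K6 (log2 fold change -1.78 ± 0.13, adjusted p = 6.34e-06). Mag, the myelin-associated glycoprotein, fell from 719 ± 113 to 283 ± 37.6 CPM, Cldn11, the tight junction protein of the sheath, from 495 ± 70.0 to 220 ± 34.4 and Cnp, a phosphodiesterase of myelin, from 1400 ± 214 to 704 ± 99.9. Those that rose were Car2, the carbonic anhydrase of oligodendrocytes (158 ± 11.4 to 257 ± 38.4 CPM), Hapln2, a matrix link protein of the node of Ranvier (14.4 ± 3.70 to 26.2 ± 5.73), and Ermn, a late cytoskeletal protein (76.1 ± 12.4 to 112 ± 20.3). Mbp was at 8050 ± 1630 and 6560 ± 3990 CPM and was not called (adjusted p = 0.711). POA controls gave 9 falls and 3 rises with age over the same list, and Sirt2, a deacetylase abundant in myelin, fell both in K6 (581 ± 56.4 to 244 ± 32.8 CPM) and with age in the POA.

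Dividing cells gave the same direction. Of 17 cell cycle genes tested, 6 fell and none rose (median -0.43), beside 10.3% and 9.16% of all genes. Mki67, the Ki-67 antigen, was at 4.64, 4.37, 4.19, 5.32 and 3.67 CPM in the libraries labelled control and at 1.11, 0.99, 1.48, 0.81 and 0.44 in K6. The ranges were well apart (log2 fold change -2.15 ± 0.24, adjusted p = 0.000143). Top2a, the replication topoisomerase, fell from 4.17 ± 0.55 to 0.80 ± 0.29 CPM, and Cdk1, the mitotic kinase, from 1.84 ± 0.38 to 0.54 ± 0.24. The POA age comparison gave 5 falls of 17. With a minimum count of 50 the falls in K6 numbered 3.

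**Figure D4:**
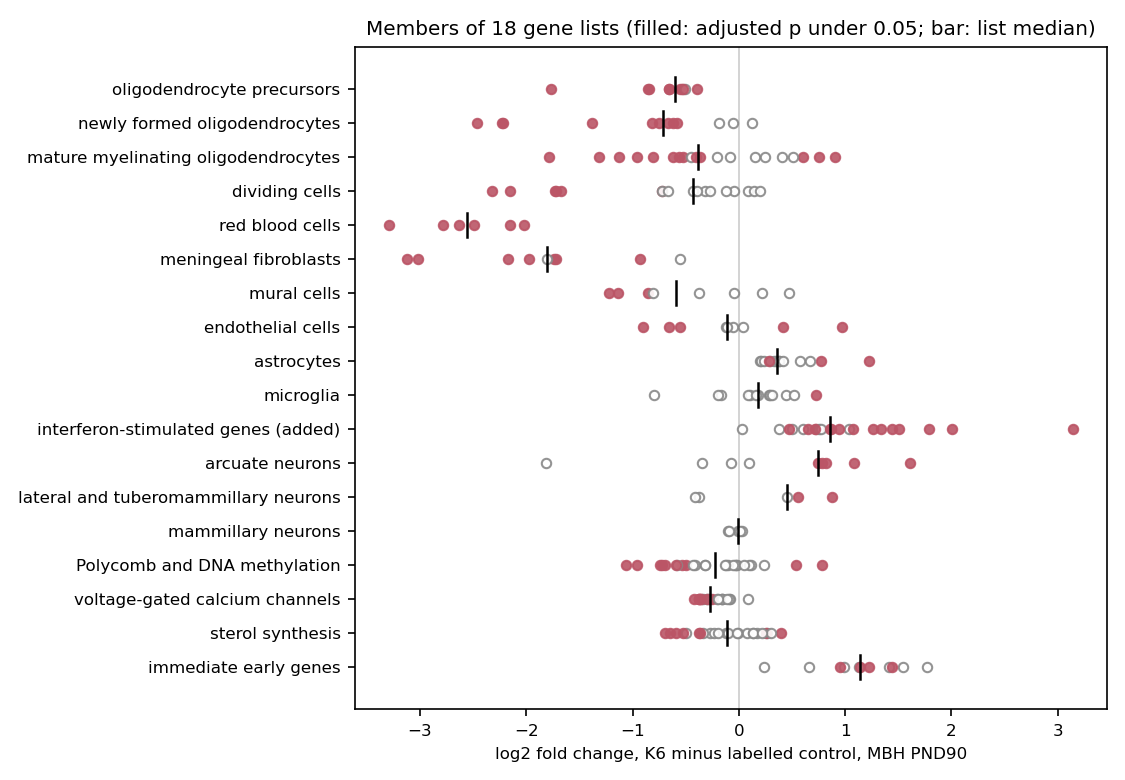
Log2 fold change in K6 against the libraries labelled control (x axis) for each tested member of 18 gene lists (y axis); filled points were called and bars are list medians. Medians run from -2.56 for red blood cells to 1.14 for immediate early genes, and the median of the 5 mammillary markers is -0.01.

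All 6 transcripts of the red blood cell list fell, with a median log2 fold change of -2.56. Hba-a2, an alpha globin, was at 248, 290, 160, 379 and 215 CPM in the libraries labelled control and at 19.0, 44.7, 28.7, 56.5 and 30.0 in K6. The lowest labelled control library was above the highest K6 library (log2 fold change -2.78 ± 0.31, adjusted p = 0.000149). The globin genes are near-identical copies between which reads can be split, so their single values are uncertain. Alas2, the erythroid enzyme that starts heme synthesis, which has no such copy in the list, fell from 14 ± 6.58 to 1.38 ± 0.24 CPM. Slc4a1, the anion exchanger of red cells and no member of the list, fell from 5.84 ± 2.77 to 0.36 ± 0.37. The summed list was 714 to 1780 CPM in the libraries labelled control and 117 to 361 in K6. It was 699 to 1580 in POA controls at PND22 and 152 to 344 at PND90. Blood left in the tissue was not measured, and its part in these values was not tested.

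Connective tissue genes fell as a group. Of 9 meningeal fibroblast markers 7 fell, with a median of -1.80, and 4 fell when any 1 labelled control library, K6 replicate 1 or K6 replicate 2 was left out. Col3a1, a fibrillar collagen, was at 56.0, 77.0, 83.2, 76.5 and 66.6 CPM in the libraries labelled control and at 8.75, 4.16, 19.8, 4.87 and 2.58 in K6 (log2 fold change -3.12 ± 0.40, adjusted p = 0.000329). K6 replicate 3 was the highest of its group for Col3a1, Col1a1 and Igf2. Col1a1 fell from 67.4 ± 15.7 to 8.09 ± 8.66 CPM, Lum, a collagen-binding proteoglycan, from 8.58 ± 1.59 to 2.48 ± 1.19, and Igf2, the fetal growth factor kept by the meninges, from 198 ± 49.2 to 48.9 ± 45.6. Over all 38 collagen genes tested, a set chosen after their values were seen, 29 fell and none rose (median -1.11). Col26a1 (log2 fold change -3.47), Col20a1 (-2.91) and Eln, the elastin gene (-3.25), were among the 12 largest falls. The summed fibroblast list was 335 to 499 CPM in the libraries labelled control and 32.1 to 229 in K6. In POA controls it was 120 to 415 CPM at PND22 and 32.6 to 272 at PND90, and none of 8 genes tested there was called with age. Meninges left on the dissected tissue were not recorded, and their part was not tested.

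Vessel cells gave mixed counts, to be read beside the 10.3% of all genes that fell and the 9.16% that rose. Of 8 mural cell genes 3 fell: Abcc9 and Kcnj8, the subunits of the pericyte potassium channel, from 27.3 ± 3.32 to 12.0 ± 0.45 and from 6.53 ± 0.55 to 2.71 ± 0.74 CPM, and Pdgfrb, the receptor that holds pericytes to the vessel, from 41.8 ± 2.41 to 22.6 ± 4.12. Without K6 replicate 4 there were 5. Of 9 endothelial genes, Kdr, Cdh5 and Esam fell and Flt1 and Emcn rose. Kdr, the main receptor for vascular endothelial growth factor, fell from 25.0 ± 2.30 to 13.1 ± 3.07 CPM, while Flt1, the decoy receptor for the same factor, rose from 44.8 ± 2.69 to 57.9 ± 8.98 (adjusted p = 0.0354). Without any 1 labelled control library the calls of Flt1 and Emcn were both lost, leaving 0 rises by edgeR, and without K6 replicate 2 there was 1.

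Of 14 astrocyte genes 3 rose and none fell (median 0.36), and of 13 microglial genes 1 rose and none fell (median 0.18), against 9.16% of all genes that rose. S100b, a calcium-binding protein, was at 1280, 1420, 1220, 1190 and 1240 CPM in the libraries labelled control and at 2040, 2820, 2100, 4370 and 2750 in K6 (log2 fold change 1.22 ± 0.22, adjusted p = 0.00249). Gfap, the intermediate filament of astrocytes, rose from 620 ± 131 to 1030 ± 227 CPM with overlap between the groups, since labelled control replicate 2 was at 850 and K6 replicate 5 at 739. DESeq2 called 6 of the 14, 6 were called without K6 replicate 4 and 5 without K6 replicate 1. With age in POA controls 10 of the 14 rose. The microglial gene called was Tyrobp (log2 fold change 0.73, adjusted p = 0.0435), and the call was lost when labelled control replicate 2, 3, 4 or 5 or K6 replicate 2 or 3 was left out. In POA controls 7 of the 13 rose with age. Of 11 tanycyte and ependymal genes 2 rose and none fell (median -0.01). Crym, a thyroid hormone-binding protein, rose from 34.7 ± 6.19 to 53.5 ± 9.84 CPM and Rax, the homeobox gene of tanycytes, was at 0.67 ± 0.20 and 1.23 ± 0.47 (adjusted p = 0.0411). The call of Rax was lost without labelled control replicate 1, 2, 4 or 5 or K6 replicate 1, 2 or 3, with no filter on low counts and in a fit of all 7 groups.

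Genes induced by interferon rose together. Of 22 tested in a list written after the first values were seen, 15 rose and none fell (median 0.86); the list is a description. Ifit3, an antiviral protein of this response, was at 0.67, 0.46, 0.88, 0.83 and 0.27 CPM in the libraries labelled control and at 1.97, 10.6, 5.06, 3.81 and 5.49 in K6. Every K6 library was above the labelled controls and replicate 2 was highest (log2 fold change 3.14 ± 0.43, adjusted p = 0.000525). Isg15, the ubiquitin-like modifier, was at 1.61, 1.37, 1.88, 1.18 and 1.86 CPM against 4.01, 14.4, 3.48, 4.87 and 4.34. K6 replicate 2 was again far above the other 4, and without it the log2 fold change was the lowest of the leave-one-out values, 1.44. Irf7, the factor that amplifies the response, rose from 4.47 ± 0.56 to 11.1 ± 5.93 CPM, Oasl2 from 3.32 ± 1.46 to 8.85 ± 4.47 and Usp18, which trims Isg15 from proteins, from 1.89 ± 0.22 to 5.30 ± 3.07. Mx1, an antiviral GTPase, was at 17.5 CPM in K6 replicate 2 and at 2.31 to 3.24 in the others, and its call was lost without K6 replicate 2 and without each of the 5 labelled control libraries. In POA controls 13 of the 22 rose between PND22 and PND90.

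Interferon-stimulated response elements hold repeats of GAAA, and the promoters of 3 of the genes that rose are given because they rose together. RefSeq windows of 300 bases, 250 before the start and 50 after, were searched on both strands for GAAA, any 2 bases, and GAAA again, which 3.92% of all 33469 promoters hold. Of the 15 called genes 8 had an entry and 5 of these held the motif; of the 7 genes of the list that were not called and had an entry, 6 held it. The capitals mark the match, which is on the reverse strand in each of the windows printed.
Ifit3, GRCr8 chr1:241527076-241527375, plus strand: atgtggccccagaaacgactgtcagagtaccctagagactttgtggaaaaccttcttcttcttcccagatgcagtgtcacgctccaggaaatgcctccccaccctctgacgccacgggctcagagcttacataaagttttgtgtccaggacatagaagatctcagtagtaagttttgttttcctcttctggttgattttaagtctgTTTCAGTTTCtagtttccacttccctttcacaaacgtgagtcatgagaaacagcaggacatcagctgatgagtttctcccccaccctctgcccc
Irf7, GRCr8 chr1:205799974-205800273, minus strand: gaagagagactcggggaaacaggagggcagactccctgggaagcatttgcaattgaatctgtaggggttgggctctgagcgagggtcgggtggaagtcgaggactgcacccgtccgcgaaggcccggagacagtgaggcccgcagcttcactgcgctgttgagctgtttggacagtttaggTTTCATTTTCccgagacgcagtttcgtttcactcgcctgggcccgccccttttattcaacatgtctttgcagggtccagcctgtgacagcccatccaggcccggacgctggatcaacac
Oasl2, GRCr8 chr12:47383136-47383435, minus strand: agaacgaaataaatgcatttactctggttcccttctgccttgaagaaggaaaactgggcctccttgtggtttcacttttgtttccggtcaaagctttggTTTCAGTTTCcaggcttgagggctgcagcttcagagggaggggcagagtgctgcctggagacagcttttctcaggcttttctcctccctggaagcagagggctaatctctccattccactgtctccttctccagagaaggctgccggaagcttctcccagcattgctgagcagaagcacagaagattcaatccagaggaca
The match begins at base 207 of the window of Ifit3, base 182 of that of Irf7 and base 100 of that of Oasl2. A match is a description of these letters and not a measured binding site.

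Arcuate neuron genes were higher in K6 in 5 of 9 cases and lower in none (median 0.75), beside 9.16% and 10.3% of all genes. Cartpt, the precursor of the CART peptide, was at 67.0, 93.6, 88.1, 88.3 and 83.3 CPM in the libraries labelled control and at 147, 179, 142, 118 and 117 in K6. The groups did not overlap (log2 fold change 0.78 ± 0.11, adjusted p = 0.000677). Pomc, the precursor of melanocortins and beta-endorphin, was at 26.3, 36.4, 46.6, 24.6 and 26.5 CPM against 87.9, 96.3, 68.0, 43.8 and 37.5. Replicates 4 and 5 of K6 lay within the labelled control range (log2 fold change 1.08 ± 0.25, adjusted p = 0.0104). Ghrh, growth hormone-releasing hormone, rose from 3.97 ± 0.80 to 6.81 ± 1.49 CPM. Agrp, the orexigenic peptide of the same nucleus, was at 11.6 ± 2.14 and 8.90 ± 1.85 CPM and was not called (adjusted p = 0.192). Npy has a row in the table but no count in any of the 10 libraries, so no level is given.

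Among the genes of kisspeptin neurons, which drive pulses of gonadotropin-releasing hormone (GnRH), the kisspeptin gene itself was low in counts. Kiss1, the kisspeptin gene, was at 1.47, 1.78, 0.99, 1.95 and 0.71 CPM in the libraries labelled control and at 5.49, 5.22, 6.03, 1.62 and 2.47 in K6. Of the K6 libraries, 4 lay above the labelled controls and replicate 4 lay among them (log2 fold change 1.61 ± 0.35, adjusted p = 0.00811). Tac3, which encodes neurokinin B, was at 16.7 ± 3.59 and 27.5 ± 9.56 CPM (adjusted p = 0.0305), and the call was lost without labelled control replicate 1, 4 or 5 or K6 replicate 1, 2 or 3. In the list of genes that control GnRH release, 2 of 17 rose (Kiss1 and Tac3) and 2 fell. Those counts are near the 9.16% of all genes that rose and the 10.3% that fell. Without K6 replicate 4 there were 4 rises. Mkrn3, a brake on puberty whose loss causes precocious puberty, was at 4.24, 2.49, 3.48, 2.54 and 3.50 CPM against 1.6, 1.37, 1.23, 1.62 and 1.15. The groups did not overlap (log2 fold change -1.19 ± 0.21, adjusted p = 0.00283). MBH controls had 3.22 ± 0.52 CPM of Mkrn3 at PND22 and 1.42 ± 0.27 at PND42, and POA controls had 3.32 ± 0.75 at PND22 and 1.35 ± 0.26 at PND90. The dynorphin gene Pdyn (125 ± 24.4 and 129 ± 42.7 CPM) and the receptor genes Kiss1r and Tacr3 were not called.

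Of 5 genes of lateral and tuberomammillary neurons 2 rose and none fell (median 0.45). Pmch, melanin-concentrating hormone, was at 1170, 888, 1020, 1140 and 1070 CPM in the libraries labelled control and at 1660, 2250, 2080, 1700 and 1770 in K6 (log2 fold change 0.88 ± 0.11, adjusted p = 0.000231). Its level was 1140 ± 272 CPM in MBH controls at PND22 and 1230 ± 302 at PND42. Against the controls labelled PND42 the call of Pmch was lost. Hcrt, the orexin gene, was at 34.5 ± 4.05 and 49.8 ± 16.3 CPM (adjusted p = 0.0415), with K6 replicates 4 and 5 inside the labelled control range. The call of Hcrt was lost without any 1 labelled control library and without K6 replicate 1, 2 or 3. Over the whole neuropeptide list of 28 genes tested, 7 rose and 2 fell, beside 9.16% and 10.3% of all genes. In that list 4 rose without labelled control replicate 1, 2 or 5 or K6 replicate 2 or 3. Npw, neuropeptide W, had the largest fall of the list, from 2.99, 4.98, 2.70, 2.25 and 2.79 CPM to 0.31, 0.25, 0.31, 0.06 and 0.05 (log2 fold change -3.92 ± 0.38, adjusted p = 6.17e-05). The groups lay far apart. MBH controls had 2.90 ± 0.81 CPM of Npw at PND22 and 0.03 ± 0.02 at PND42. Npw was not tested against the controls labelled PND42, and its K6 mean of 0.196 CPM lay above theirs. None of the 7 paraventricular and supraoptic, 4 suprachiasmatic or 6 thalamic markers was called.

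**Figure D5:**
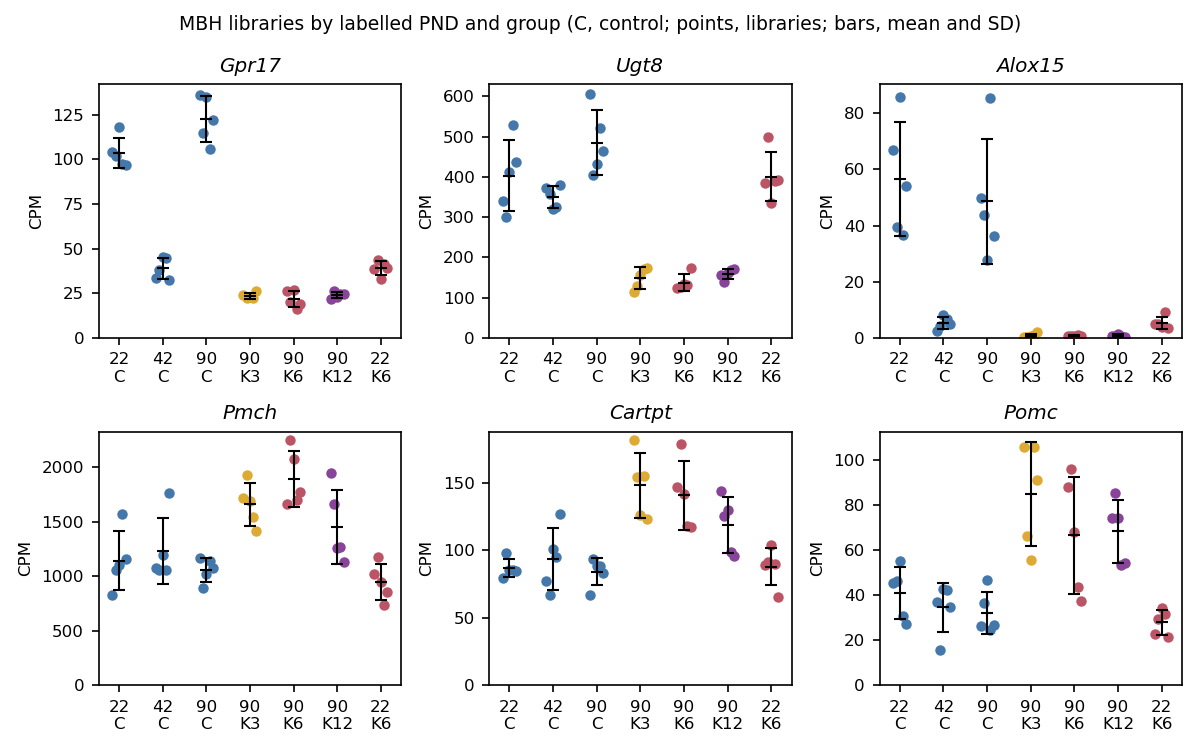
Level (CPM) of 6 genes in MBH libraries by labelled PND and group (C, control); points are libraries, bars the mean and SD of 5. Gpr17, Ugt8 and Alox15 in the libraries labelled PND90 control are as high as at PND22. Pmch, Cartpt and Pomc are higher in the KTZ groups at PND90 than in the libraries labelled PND90 control. Against the controls labelled PND42 the K6 calls of these 3 genes were lost, and that of Pomc also against those labelled PND22.

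Genes of Polycomb silencing and DNA methylation fell more often than they rose, with 8 falls and 2 rises among 26 (median -0.22). Over all genes 10.3% fell and 9.16% rose. Cbx7, a Polycomb subunit that reads methylated histone H3, was at 52.5, 50.8, 46.6, 50.7 and 58.1 CPM in the libraries labelled control and at 88.0, 80.9, 95.9, 78.1 and 90.6 in K6 (log2 fold change 0.78 ± 0.07, adjusted p = 5.3e-05). Its paralog Cbx6 fell from 326 ± 19.3 to 190 ± 8.24 CPM. The methyltransferase subunits Ezh1 and Ezh2, which replace each other in the complex, moved in opposite directions: Ezh1 rose from 71.5 ± 3.67 to 102 ± 18.6 CPM, except in K6 replicate 4 at 71.3, and Ezh2 fell from 9.14 ± 1.11 to 4.59 ± 0.96. CPM do not include the scaling factor of the fits, which was 0.875 for K6 replicate 4. Dnmt3a, a de novo DNA methyltransferase, fell from 42.7 ± 4.46 to 20 ± 5.09 CPM. The core genes Eed, Suz12 and Rnf2 were not called. POA controls changed in 11 genes downwards and 3 upwards with age over this list. The study picked Cbx7, Ezh1, Ezh2 and Dnmt3a on these samples, so they are not independent evidence.

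Of 21 GABA genes 4 were called and of 27 glutamate genes 6, near the share over all genes (19.4%). Gabre, a GABA-A receptor subunit, was at 45.8, 59.4, 65.3, 59.3 and 46.6 CPM in the libraries labelled control and at 33.2, 29.0, 36.8, 12.0 and 26.6 in K6 (log2 fold change -0.99 ± 0.20, adjusted p = 0.00535). Of the GABA list, Abat and Gabrg1 rose and Gabre and Gabrg3 fell. Without K6 replicate 4, 6 rose, and the call of Gabrg3 was lost without labelled control replicate 3 or 4 or K6 replicate 2. Grm3, a metabotropic glutamate receptor, rose from 30.2 ± 4.16 to 47.0 ± 8.01 CPM, while 5 of 27 glutamate genes fell, with 3 without labelled control replicate 3 or 5. They included Grin2d (43.6 ± 4.53 to 29.9 ± 3.57) and Grm4 (33.2 ± 4.29 to 21.3 ± 1.75). Of 21 voltage-gated calcium channel genes 8 fell and none rose, with a median of -0.27. There were 4 without labelled control replicate 4, and 5 without labelled control replicate 5 or K6 replicate 2. Cacng4, an auxiliary subunit, went from 151 ± 2.12 to 119 ± 3.54 CPM. In POA controls 7 of the 21 calcium channel genes fell with age.

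Genes of sterol and steroid synthesis, on which KTZ acts, were called in both directions. Over all genes 9.16% rose and 10.3% fell. Of 24 sterol synthesis genes 6 fell and 2 rose (median -0.11), and 6 rose without K6 replicate 4. Tm7sf2, Hsd17b7 and Dhcr7, of the later steps, fell by 0.65, 0.70 and 0.52 on the log2 scale. Cyp51, the sterol demethylase inhibited by azoles, was at 282 ± 29.8 and 233 ± 12.6 CPM and was not called (adjusted p = 0.0957). Msmo1 rose from 131 ± 13.4 to 168 ± 16.7 CPM, and Sc5d from 243 ± 18.8 to 283 ± 24.1. POA controls gave 11 falls and 1 rise with age. Of the steroid hormone genes, Akr1c14, a hydroxysteroid dehydrogenase of neurosteroid synthesis, fell from 4.88 ± 1.33 to 1.67 ± 0.69 CPM, and Cyp7b1, which hydroxylates oxysterols, rose from 23.0 ± 3.10 to 31.3 ± 1.99. Star and Cyp17a1 did not pass the filter on low counts. Among 27 steroid and nuclear receptors 5 rose (2 or 3 when any 1 library other than labelled control replicate 5 or K6 replicate 4 or 5 was left out) and 1 fell. Rarb, a retinoic acid receptor, rose from 8.06 ± 0.59 to 11.2 ± 1.43 CPM.

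Growth factor, clock and activity genes gave scattered calls, to be read beside the 9.16% of all genes that rose and the 10.3% that fell. Igfbp5 rose from 174 ± 6.38 to 259 ± 32.9 CPM, while Igf2, Igfbp2 and Igfbp4, also listed under insulin-like growth factor signalling, fell. Of the 21 genes of that list 4 fell: 1 without labelled control replicate 1 or K6 replicate 2, 2 without any other labelled control library or K6 replicate 5, and 7 without K6 replicate 4. The call of Igfbp2 was lost without labelled control replicate 1, 3 or 4 or K6 replicate 2, and that of Igfbp4 without labelled control replicate 1, 2 or 5 or K6 replicate 2 or 5. Among 17 clock genes 5 rose, including Cry2 (104 ± 5.91 to 121 ± 6.56 CPM), and Per3 fell; there were 2 rises without labelled control replicate 3, 4 or 5 or K6 replicate 2, and 8 without K6 replicate 4. Of 11 immediate early genes 4 rose and none fell (median 1.14), with a wide spread: Btg2 was at 11.3, 61.5, 37.3, 11.1 and 38.1 CPM in K6 against 9.76 to 14 in the libraries labelled control. K6 replicates 1 and 4 lay within the labelled control range, and the call of Btg2 was lost without labelled control replicate 2, 3 or 4 or K6 replicate 2. Of the 11 genes, 9 were called without K6 replicate 1 or 4, 1 without K6 replicate 2 or labelled control replicate 2 or 4, and 2 without labelled control replicate 3. Sgk1, a kinase induced by glucocorticoids, was at 26.0, 73.8, 101, 131 and 140 CPM in K6 and at 32.5 to 43.6 in the libraries labelled control (adjusted p = 0.0145). No mitochondrially encoded gene of 13 was called.

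The remaining lists stand beside the 9.16% of all genes that rose and the 10.3% that fell. Of 17 histone deacetylases and sirtuins 4 fell and 1 rose, with 2 falls without labelled control replicate 4 or 5 or K6 replicate 2 or 5. Of 16 synaptic vesicle genes 2 fell and 1 rose, and of 7 genes of immature neurons 2 fell and 2 rose. Of 6 striatal markers Ppp1r1b rose, of 4 ventromedial markers Fezf1 rose, of 6 choroid plexus markers Clic6 rose, and of 4 pituitary genes Lhb fell. The call of Fezf1 was lost with a minimum count of 50, with no filter, in a fit of all 7 groups and without any 1 library other than labelled control replicate 2 or K6 replicate 4. The call of Lhb was lost without labelled control replicate 2 or 3. None of 4 cortical markers was called. Of 62 genes the study had picked on these samples 17 fell and 9 rose, which is not independent evidence of their direction.

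The second question was whether the response depended on dose. No gene was called between K6 and K3 (edgeR; 326 of 14471 at an unadjusted p under 0.05; DESeq2 also called 0) or between K6 and K12 (760 of 14456; DESeq2 0). For the genes called against the libraries labelled control, the median absolute log2 difference was 0.07 between K6 and K3 (2780 genes) and 0.11 between K6 and K12 (2772 genes), against 0.50 and 0.49 for the same genes between K6 and the libraries labelled control. The genes were chosen by their difference from the libraries labelled control, which raises the medians of 0.50 and 0.49. The same K6 libraries enter the differences between doses, so the choice can also affect those medians. Intervals, which are not adjusted for the number of genes and are wider than the edgeR test's own 95% intervals, show what the design allowed. Gpr17 was at 21.8 ± 4.6 CPM in K6, 23.5 ± 1.72 in K3 and 23.9 ± 1.72 in K12, and the 95% interval of the log2 difference ran from -0.37 to 0.15 for K3 and from -0.39 to 0.12 for K12. For Pomc it ran from -0.92 to 0.22 against K3 and from -0.56 to 0.48 against K12. For Kiss1 it ran from -0.48 to 1.57 against K12, so a difference of either sign was not shown to be absent. Most intervals of the named genes included 0, but some did not. Against K12 that of Enpp6 ran from -0.72 to -0.17 and that of Pmch from 0.04 to 0.73, though neither gene was called.

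The third question was whether K6 acted alike at PND22 and PND90, tested as an interaction of labelled age and exposure in the MBH. The test called 745 of 15103 genes (4.93%), 253 of them (1.68%) with a more positive K6 difference at PND90. The count was 1597 without K6 replicate 4 at PND90. It fell to between 361 and 461 without labelled control replicate 1 or 5 or K6 replicate 1 or 2 at PND90, or without control replicate 1 or 2 or K6 replicate 5 at PND22. The test compares 4 groups, and those labelled PND90 control and PND22 K6 had age scores of other labelled ages. The libraries labelled PND90 control scored between -1.12 and -0.70, with the PND22 controls. The MBH K6 libraries at PND22 scored between 0.38 and 0.97, beside 0.25 to 0.81 in the PND42 controls. Alox15 was at 5.27 ± 2.30 CPM in K6 at PND22 against 56.6 ± 20.4 in the controls of that age, so it was lower at both ages and the K6 difference was more negative at PND90 by 2.63 on the log2 scale (adjusted p = 0.00591). Ugt8 was at 401 ± 60.2 CPM in K6 and 403 ± 89.1 in controls at PND22, and the interaction was -1.83 on the log2 scale (adjusted p = 0.000244). Pomc went the other way, with 27.9 ± 5.60 CPM in K6 and 41.0 ± 11.7 in controls at PND22 (interaction 1.58, adjusted p = 0.0103). Cartpt was at 87.9 ± 13.9 and 86.6 ± 6.80 CPM at PND22 (interaction 0.70, adjusted p = 0.0169). Kiss1 was at 1.10 ± 0.36 and 1.96 ± 0.70 CPM there (interaction 2.38, adjusted p = 0.00791). Gabre, Mkrn3, Ezh2, Cbx7 and Dnmt3a were not called in the interaction, with adjusted p-values from 0.139 to 0.917.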

How the data were processed

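Polyadenylated RNA of the MBH was sequenced as stranded libraries on a NovaSeq 6000. The authors demultiplexed reads with bcl2fastq 2.20, ran nf-core/rnaseq with STAR against Rnor_6.0, and obtained gene values with featureCounts from the Ensembl annotation. They deposited whole-number counts per gene and library without normalization, in one table per tissue. Whether counting used strand, and how reads with several alignments were treated, is not given in the sources used here, so values of overlapping, antisense and near-identical genes are uncertain. Groups come from the labels, and no library was dropped.

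Differences were fitted in edgeR 4.0.16 (R 4.3.3, TMM scaling, filterByExpr with a minimum count of 10, two-sided quasi-likelihood test, Benjamini-Hochberg adjustment over all tested genes). Genes with an adjusted p under 0.05 are called, and "rose" and "fell" are written of called genes. Standard errors come from the fold change and the F statistic (its size over root F). CPM are counts over the library's total before TMM scaling, given as mean ± SD of 5; the totals give the depth, and the SD covers the spread between rats and counting error together. Intervals of dose differences are 95% by a t distribution with the residual degrees of freedom only. The quasi-likelihood test has more, so they are wider than 95% intervals of that test. The age score used log2 of CPM plus 0.5 and genes with a mean log2 CPM of at least 1. DESeq2 1.42.0, another scaling, other filters, other fits, a replicate block and leaving out each library were alternatives. The test was checked on simulated counts.

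Named genes were the 12 with the largest rise and the 12 with the largest fall among called genes with a mean log2 CPM of at least 1, a symbol and no overlap between groups; up to 4 called members of each list with the smallest adjusted p; and Cbx7, Ezh1, Ezh2, Grm3, Gabre, Npw, Mkrn3 and Dnmt3a. Other members are named where a list needs them. The comparison, members and lists were chosen with earlier results of these data known. Promoter windows are RefSeq's on GRCr8, not the build of the counts. The lists also hold genes that are not analysed or not reported here.
Interferon-stimulated genes and collagens were listed after their values were seen.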

Additional observations from a re-analysis of the deposited data

Results flagged for a closer look

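Several single libraries lay far from the other 4 of their group by Dixon's test, which flags about 1 in 20 groups by chance. K6 replicate 4 had 12.4% mitochondrially encoded counts (6.74 to 7.68% in the other K6 libraries) and 33.2 CPM of Thrsp (13.6 to 18.3 in the other K6 libraries). K6 replicate 2 had 14.4 CPM of Isg15 (3.48 to 4.87 in the others), 18.8 of Ifit2 (9.62 to 12.0), 17.5 of Mx1 (2.31 to 3.24) and 12.7 of Herc6 (6.00 to 7.46). K6 replicate 5 had 61.1 CPM of Grm3 (42.4 to 45.2). Among the libraries labelled control, replicate 2 had 115 CPM of Eln (40.5 to 53.3) and 4.98 of Npw (2.25 to 2.99), replicate 1 had 37.5 of Grm3 (27.4 to 29.3), and replicate 3 had 3.48 of Irf7 (4.67 to 4.77).

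The K6 difference at PND90 differed from that at PND22 in 745 genes by the interaction test (edgeR, adjusted p under 0.05). The libraries labelled PND90 control and the K6 libraries labelled PND22 have age scores of other labelled ages, and the part of age in these values was not tested. On the log2 scale the K6 difference was more positive at PND90 for Aadat (1.72), Gsta1 (1.49), Qdpr (0.67), Lrat (1.77), Oasl2 (1.67) and Ifih1 (0.79). It was more negative for Alox15 (-2.63), Alas2 (-2.17), Col3a1 (-2.21), Aim2 (-1.86), Col20a1 (-1.16), Hba-a2 (-1.77), Pnlip (-1.55), Hba-a3 (-2.04) and Grm3 (-0.74).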

How the results depend on the processing

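The count of genes called in K6 against the libraries labelled control was between 1866 and 3719 when 1 library was left out, the lowest without K6 replicate 2 and the highest without K6 replicate 4. It was within 1.5 times the main 2843 with other scaling, no filter, a minimum count of 50, DESeq2 and the larger fits. With a replicate block it was 1850. The replicate numbers do not pair the rats: same-numbered libraries had correlations of their deviations between -0.162 and 0.0342, no library correlated best with its own number, and the block is a fit on a shared number only; the interaction count was 773 with the block. With the block 4 calcium channel genes fell in place of 8, and 22 named genes lost their call. They were Rax, Tyrobp, Esam, Flt1, Fezf1, Igfbp4, Cry2, Btg2, Oasl2, Mx1, Ifit2, Rtp4, Dusp1, Ier2, Nfil3, Snap25, Syn1, Slc6a11, Hdac10, Hsd17b10, Nr3c2 and Lepr. Added after the data were seen, the control libraries labelled PND42 gave 47 calls and those labelled PND22 gave 3166; 1105 of the calls were not called with age in the POA, and 114 had the opposite sign there. Against the PND42 controls, 10 named genes changed sign, none with an adjusted p under 0.05: Thrsp (-0.0586), Cryab (-0.0358), Stmn1 (-0.16), Grm3 (-0.0928), Grik5 (0.12), Igfbp5 (-0.0409), Ciart (-0.12), Nfil3 (-0.25), Sgk1 (-0.29) and Snap25 (-0.10); against the PND22 controls Grm4 did (0.0292). With the same libraries, no other scaling, filter, tool, block or left-out library turned the sign of a named gene called here. The interaction count was 1163 with DESeq2 and 361 to 1597 when 1 library was left out, the lowest without labelled control replicate 1 at PND90 and the highest without K6 replicate 4. K6 against K3 and against K12 stayed at 0 calls in every fit run. The cause of these shifts was not tested.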

Other observations

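Among the K6 calls were genes that were not called with age in POA controls. Spp1, osteopontin, rose from 6.25 ± 0.69 to 13.6 ± 3.18 CPM (log2 fold change 1.15, adjusted p = 0.000222, edgeR), and its log2 fold change between POA controls at PND90 and PND22 was -0.0034 (adjusted p = 0.994). Slc15a2, a peptide transporter of astrocytes, rose from 42.3 ± 5.63 to 61.8 ± 9.01 CPM, against -0.0067 with age in the POA. Emp3 fell from 3.49 ± 0.54 to 1.90 ± 0.57 CPM, against 0.19 with age. These genes were chosen after their values were seen, and the POA is another tissue.

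Slc6a3, the dopamine transporter, ranged from 5.41 to 133 CPM among the libraries labelled control and from 5.24 to 54.2 in K6, and was not called (adjusted p = 0.156).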
